A study of Mus musculus with 16 samples.

Results

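The genes described here are 9 that mark neural stem cells and radial glia: Nes, Vim, Sox2, Sox9, Prom1, Fabp7, Msi1, Cd24a and Hmga2. They were chosen by symbol, not by their values, and are 9 of the 26466 genes in the table of all libraries. All 9 passed the filter on low values, as did 26463 genes in all. They were followed by bulk RNA sequencing in 16 libraries from transplanted mouse glioblastomas of 2 kinds, called Type 1 and Type 2. The tumours were studied with or without removal of the macrophages and microglia that live inside the tumour (tumour-associated macrophages, TAMs). Type 1 Control had 5 libraries, Type 1 TAM depleted had 3, Type 2 Control had 4 and Type 2 TAM depleted had 4, each from tumour tissue grown from transplanted cells in a host. The labels state neither the strain, age and sex of the hosts nor the engineered alleles of the tumours nor how TAMs were removed. As background, in published work on lineage-based models Type 1 tumours were derived from neural stem cells and Type 2 tumours from oligodendrocyte precursors, which the labels do not state. The labels do not tie each library to its own animal, and the p-values therefore reflect how these libraries varied, which may be technical.

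Radial glia are the stem cells of the embryonic brain, and the neural stem cells of the adult ventricular wall descend from them. Both carry the intermediate filaments nestin and vimentin, depend on the transcription factors Sox2 and Sox9 and on Notch signalling to stay stem cells, and give rise to neuroblasts and glia. Glioblastomas express many of these genes, and several of them are used to mark tumour cells with stem cell properties.

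The stretches upstream of Nes, Sox2 and Fabp7 are shown first, since the levels of these genes moved together within the groups, as described at the end. Sox9 also moved with Nes and Sox2 but had no upstream sequence to show. Any part of these stretches in the levels was not tested. Each stretch is 200 bases long, from 250 to 51 bases before the RefSeq start site (GRCm38.p6), printed 5′ to 3′ on the gene's strand. Capitals mark matches on either strand to the GC box GGGCGG, the CCAAT box and the TATA box TATAAA.
Nes: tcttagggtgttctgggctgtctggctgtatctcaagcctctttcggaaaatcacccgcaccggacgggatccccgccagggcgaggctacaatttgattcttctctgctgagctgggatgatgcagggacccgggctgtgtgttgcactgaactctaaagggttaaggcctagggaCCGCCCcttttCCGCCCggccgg
Sox2: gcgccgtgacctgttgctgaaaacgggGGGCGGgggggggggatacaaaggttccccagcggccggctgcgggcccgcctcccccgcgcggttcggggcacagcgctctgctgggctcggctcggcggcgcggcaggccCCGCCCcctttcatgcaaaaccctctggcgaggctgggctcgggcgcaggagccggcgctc
Fabp7: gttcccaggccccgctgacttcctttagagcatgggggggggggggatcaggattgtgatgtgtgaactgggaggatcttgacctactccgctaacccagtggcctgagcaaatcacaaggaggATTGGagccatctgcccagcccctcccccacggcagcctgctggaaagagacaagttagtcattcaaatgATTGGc
The Nes window (chr3:87970843-87971042, plus strand) held 2 GC boxes and 11 CpG sites, and 59% of its bases were G or C. The Sox2 window (chr3:34649745-34649944, plus strand) also held 2 GC boxes, with 24 CpG sites and 76% G or C. The Fabp7 window (chr10:57784673-57784872, plus strand) held 2 CCAAT boxes, no GC box and 3 CpG sites, with 57% G or C. Among all 32851 windows of this length, 24.6% held a GC box, 28.4% a CCAAT box and 9.14% a TATA box, and the median window had 4 CpG sites and 51.5% G or C. The letters TGGGAA, the core that the Notch effector CSL (Rbpj) binds, were found once in the Fabp7 window and in neither of the other two (17.9% of all windows). The letters ACAAAG, of the kind that SOX factors bind, were found once in the Sox2 window (13.6% of all windows), while the E-box CAGCTG (10.3%) and the AP-1 motif TGANTCA (5.57%) were found in none of the 3. No marked match overlapped another, and a match describes letters, not binding.

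Depth and background differed among the libraries. They held 4.21 to 18.3 M (mega) recovered reads. Genes for 974 smell and pheromone receptors (olfactory and vomeronasal), normally used in the nose, served as a gauge of background, and their reads reached 2666 or more per M reads in 9 libraries, called high-background here, and 779 or less in 7, called low-background. All 5 Type 1 Control libraries were high-background and all 3 Type 1 TAM depleted libraries low-background, so in Type 1 background and depletion cannot be told apart. Each Type 2 group had 2 libraries in either set, the high ones being 1 and 3 of Control and 3 and 4 of TAM depleted. Type 2 Control 1 stood apart, with the fewest reads and 8480 receptor reads per M. The gene model Gm10800 alone took 13.8 to 58.2% of the reads in the high-background libraries, the most in Type 2 Control 1. In the low-background libraries it took 0.0491 to 2.03%. The depths given here include these reads, so fewer were left for other genes in the high-background libraries. Gfap, the glial filament typical of gliomas, was present in every library at 864 to 7294 normalized counts, reads divided by the size factor of the library.

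Levels were compared between genes per kilobase of merged exons. By the median over 16 libraries, Fabp7, a brain lipid-binding protein of radial glia, was the most abundant at 850 normalized counts per kilobase, followed by Vim at 763. Cd24a, a surface glycoprotein of neuroblasts and progenitors, stood at 289, Sox2 at 164, Msi1 at 150, Nes at 137 and Sox9 at 109. Prom1, the membrane protein CD133, was at 23.9 and Hmga2, a chromatin protein of fetal growth, at 8.88. Within a gene the highest library exceeded the lowest by 4.05-fold in Prom1 and by 50.6-fold in Cd24a, with the other 7 between.

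The low levels of Prom1 and Hmga2 were near the background in many libraries. Background was set as the pooled reads per kilobase over 941 receptor genes with a known length. Hmga2 was at 1.04 to 1.77 times this density in the Type 1 Control libraries and at 0.687 times in Type 2 Control 1, and it was under 5 times in 11 of 16 libraries. Prom1 was under 5 times in 9 of 16 libraries and at 1.04 times in Type 2 Control 1. In that library Msi1, an RNA-binding protein of stem cells, was also at only 0.735 times, Sox9 at 1.41 times and Cd24a at 1.75 times the density. Vim was at least 27.6 times and Fabp7 at least 6.61 times the density in every library.

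**Figure D1:**
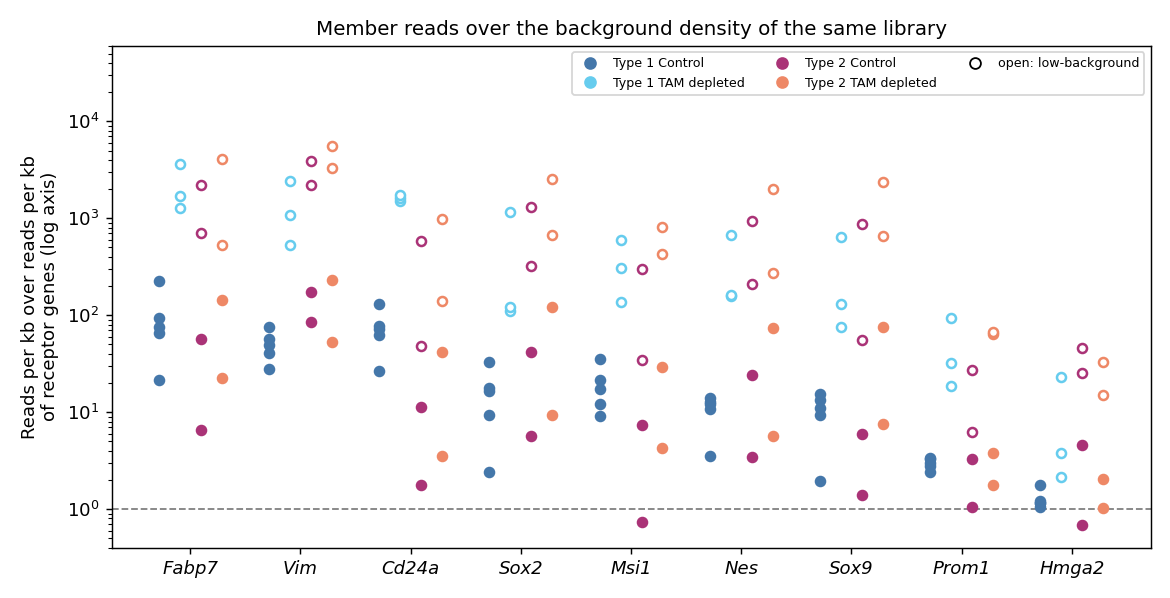
Reads per kilobase of each gene divided by the reads per kilobase of receptor genes in the same library (log axis), with 1 point per library, coloured by group and open for the low-background libraries. The dashed line marks equality; Hmga2 in the Type 1 Control libraries lies at 1.04 to 1.77, while Vim lies above 27 in every library.

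The gene models bear on these counts, because the library kit does not mark strand. All positions are GENCODE vM21 on GRCm38. Nes lies at chr3:87971078-87980451, Vim at chr2:13573927-13582826, Sox9 at chr11:112782224-112787760, Fabp7 at chr10:57784881-57788450, Cd24a at chr10:43578284-43584265 and Msi1 at chr5:115429599-115455698, and none of the 6 shares exon bases with another gene. The single exon of Sox2 (chr3:34650405-34652461) lies inside Sox2ot, a long noncoding gene on the same strand, with 0 exon bases in common. The antisense gene Gm16401 shares 424 exon bases with Prom1 (chr5:43993620-44102032), and 1700006J14Rik shares 140 with Hmga2 (chr10:120361275-120476469). The counts of the last 2 pairs cannot be told apart by strand, and 1700006J14Rik itself was counted at 2.99 to 41.8 normalized counts. Cd24a has near copies without introns elsewhere in the mouse genome, and how reads shared with them were counted was not stated, so its level is uncertain to that extent.

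The comparison of Type 2 Control with Type 1 Control asks how the tumour kinds differ while TAMs are present. Vim was higher and Cd24a lower in Type 2, and of the 9 genes these 2 passed the limma-trend test at an adjusted p under 0.05. Among all genes tested 3.09% passed, 2.28% higher and 0.816% lower. The levels of Nes, Sox2 and Hmga2 were also higher on average and those of Msi1 and Prom1 lower, without passing. Sox9 and Fabp7 had the smallest differences. In bulk RNA, fewer cells of a type and less RNA per cell cannot be told apart.

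Vim encodes the intermediate filament of radial glia, and also of astrocytes, fibroblasts, endothelium and macrophages. Its normalized counts were 2715, 2754, 1000, 2383 and 1626 in Type 1 Control 1 to 5. In Type 2 Control 1 to 4 they were 11153, 9874, 5234 and 12829. Every Type 2 Control library stood above every Type 1 Control library, a separation that 6.95% of all genes showed, 5.03% in this direction and 1.93% in the other. The means were 2096 ± 762 (SD, n = 5) and 9772 ± 3258 (SD, n = 4), which is 2.24 on the log2 scale (SE 0.40; adjusted p = 0.00444 by limma-trend), or 4.73-fold. Within the high-background libraries alone, 5 against 2, the log2 difference was 1.96 (adjusted p = 0.0299).

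Cd24a showed the opposite direction. Its normalized counts were 2581, 1677, 527, 1886 and 1667 in Type 1 Control 1 to 5. In Type 2 Control 1 to 4 they were 125, 803, 184 and 152. The groups overlapped, since Type 2 Control 2 stood above Type 1 Control 3, while the other 3 Type 2 libraries lay below all of Type 1. The means were 1668 ± 739 (SD, n = 5) and 316 ± 325 (SD, n = 4), which is -2.68 on the log2 scale (SE 0.68; adjusted p = 0.0397 by limma-trend), or 6.41-fold lower. Among the high-background libraries, 5 against 2, the log2 difference was -3.28 (adjusted p = 0.00792, limma-trend). That set leaves out Type 2 Control 2, the library that made the groups overlap, and Type 2 Control 4. In Type 2 Control 1, which it keeps, Cd24a was at only 1.75 times the background density, on 35 reads. The call rested on single libraries: with each of the 9 control libraries left out in turn the adjusted p ran from 0.0123 to 0.115, and it stayed under 0.05 only without Type 1 Control 3 or without Type 2 Control 2.

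**Figure D2:**
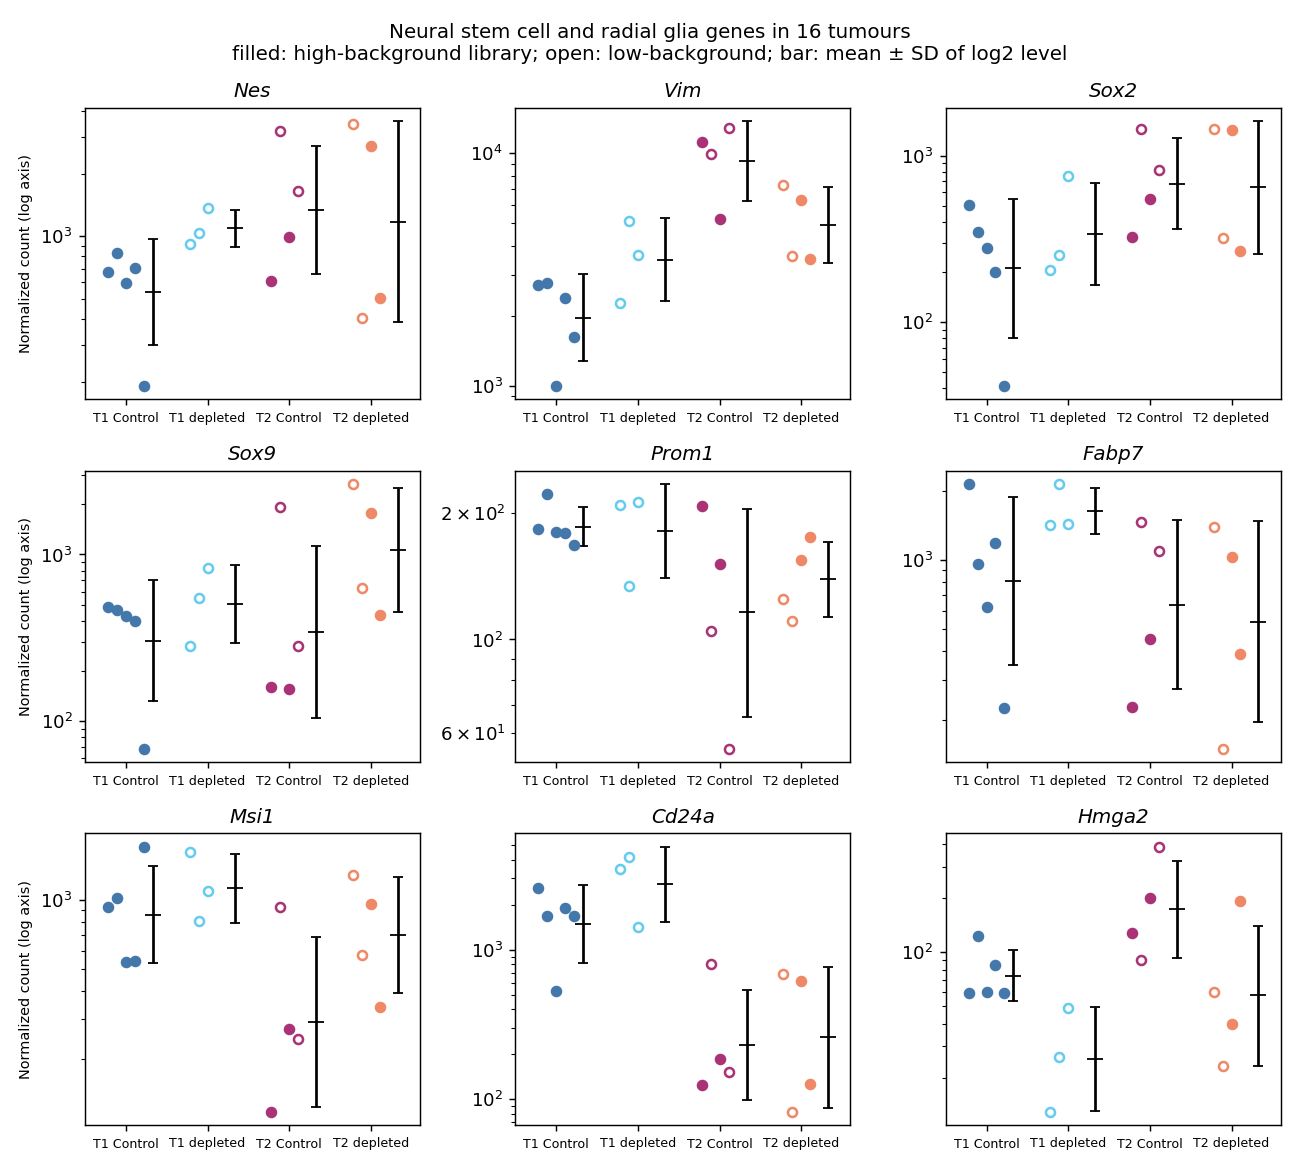
Normalized count of each of the 9 genes (log axis) in every library, by group (T1, Type 1; T2, Type 2; depleted, TAM depleted). Points are libraries in order of their number, open where low-background; bars are mean ± SD of the log2 level. The Vim points of the T2 Control libraries all lie above those of T1 Control, and the Cd24a points of both T2 groups lie mostly below both T1 groups.

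The transcription factor Sox2, which maintains neural stem cells, had 507, 349, 279, 199 and 41.5 normalized counts in Type 1 Control and 325, 1436, 548 and 819 in Type 2 Control. Type 1 Control 5 was the lowest and Type 2 Control 2 the highest of these, and the groups overlapped only through Type 2 Control 1. This gave a log2 difference of 1.68 (SE 0.71; adjusted p = 0.277, limma-trend). For Nes, the filament protein nestin, the counts were 675, 833, 599, 707 and 191 in Type 1 Control. Against these stood 611, 3191, 995 and 1649 in Type 2 Control, again overlapping only through Type 2 Control 1, with a log2 difference of 1.31 (SE 0.64, adjusted p = 0.382). In both genes 3 of the 4 Type 2 libraries were above all of Type 1.

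Msi1 had 933, 1025, 535, 538 and 1712 normalized counts in Type 1 Control and 118, 932, 272 and 245 in Type 2 Control. Only Type 2 Control 2 reached the Type 1 range. On the log2 scale the difference was -1.55 (SE 0.53; adjusted p = 0.145, limma-trend). It passed in 6 of 23 alternatives, with a value of -0.87 to -2.26 over all 23. The 6 were quantile normalization (adjusted p = 0.0245), scaling over high genes (0.0388), library quality weights (0.0127), the background set as a term (0.0345), the high-background libraries alone (0.0263) and the fit without Type 2 Control 2 (0.022).

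Hmga2 had 58.9, 123, 60.0, 84.4 and 59.5 normalized counts in Type 1 Control, near the background density, and 129, 90.7, 199 and 387 in Type 2 Control. Type 2 Control 4 was the highest of all 16 libraries, and the groups overlapped through Type 2 Control 2. The log2 difference was 1.22 (SE 0.55; adjusted p = 0.336, limma-trend). Prom1 ranged from 168 to 222 in Type 1 Control and from 55.0 to 207 in Type 2 Control (log2 difference -0.67, SE 0.32, adjusted p = 0.369). Fabp7 (log2 difference -0.34, 95% interval -1.81 to 1.13) and Sox9 (0.17, -1.43 to 1.77) had intervals wide enough to hold a 2-fold difference either way. Sox9 changed sign in 8 of 23 alternatives, with values down to -0.94, and down to -0.66 with 1 library left out. Fabp7 changed sign in 2 of 23, with values up to 0.15.

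**Figure D3:**
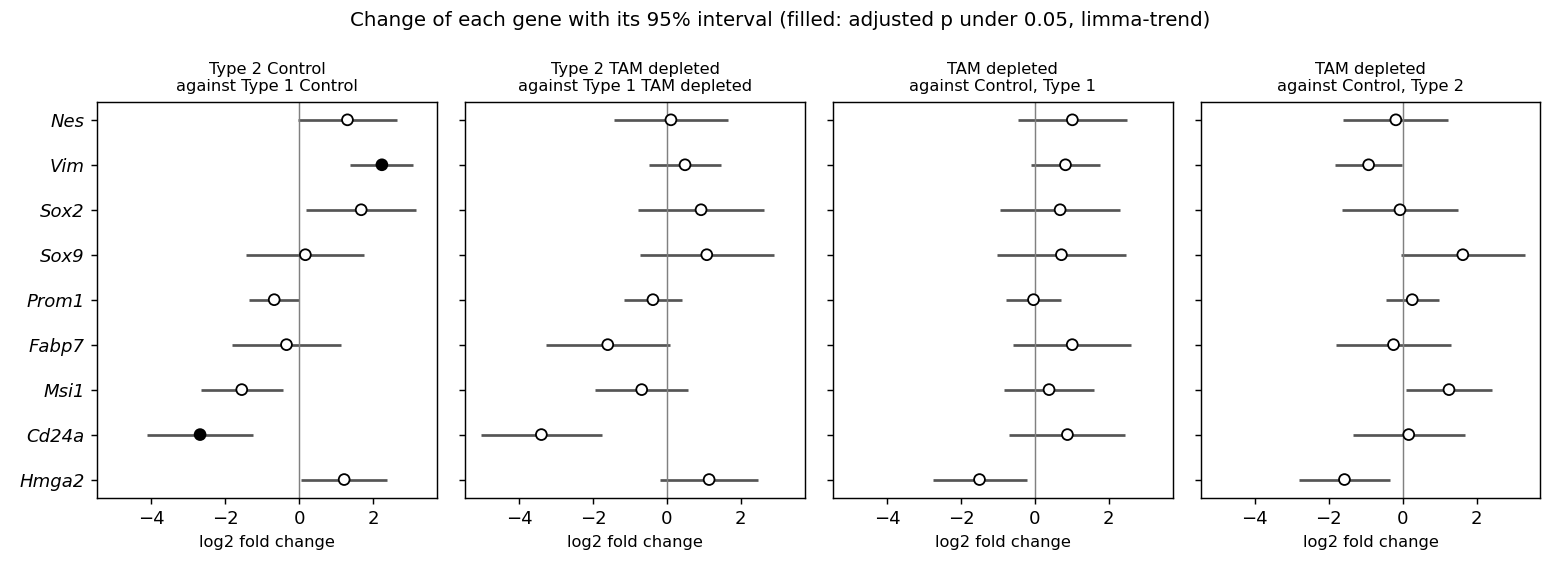
Log2 fold change of each gene with its 95% interval in 4 comparisons (limma-trend); filled points have an adjusted p under 0.05. Only Vim (2.24) and Cd24a (-2.68) between the control tumours are filled, and Cd24a has the lowest point, -3.40, between the depleted tumours.

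Other genes of the stem cell programme lay on both sides of 0 between the control tumours. Of 32 companion genes of neural stem cells and radial glia (Notch pathway, SOX and homeobox factors and receptors), 19 were higher and 13 lower in Type 2, with a median log2 difference of 0.20 against -0.23 over all genes tested. Only Sox11, a factor of newborn neurons, passed, at -3.18 (SE 0.65; adjusted p = 0.0109, limma-trend). Next by p were Gli3, the Hedgehog-pathway factor, at 2.02 (adjusted p = 0.0576), Ptprz1, a receptor phosphatase of radial glia and gliomas, at 1.72 (0.0737) and Id3 at 1.41 (0.0939). Among 9 other intermediate filament and linker genes, the neuronal Ina fell by 2.81 (adjusted p = 0.0141) and Nefh fell by 3.18 (0.0228), the opposite direction to Vim. Among 12 genes of fetal growth listed beside Hmga2, 3 were higher and 9 lower, and only Mycn passed. Mycn, the oncogenic transcription factor, averaged 24299 ± 15119.5 normalized counts (SD, n = 5) in Type 1 Control and 51.7 ± 13.7 (SD, n = 4) in Type 2 Control (log2 difference -8.60, adjusted p = 3.73e-07).

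Markers of other cell types differed between the same libraries. Of 9 neuroblast markers, a list that leaves out Cd24a, 8 were lower in Type 2 Control (median -2.27) and 4 of these passed by limma-trend: Igfbpl1 at -4.99, Dcx at -3.31, Sox11 and Dlx1 at -2.27. The summed level of the 9 was 7064 to 20365 normalized counts in Type 1 Control and 1306 to 8153 in Type 2 Control. All 9 fibroblast markers were higher (median 2.25), 4 of them past the test, among them Fn1 at 3.49, Postn at 3.04 and Col3a1 at 2.25, with a summed level of 1963 to 3021 against 7467 to 48372. All 18 TAM markers were higher (median 1.19; summed 2307 to 4186 against 4642 to 11506) and 0 passed by limma-trend or limma-voom, though 14 had an unadjusted p under 0.05. All 8 oligodendrocyte precursor markers were higher (median 2.50), with 4 past the test, led by Sox10 at 4.56 and Cspg4 at 3.68, and a summed level of 662 to 3832 against 5562 to 33556. No gene of these 4 lists was at 0 in a library. All 15 neuronal markers were lower (median -2.14; summed 14043 to 40449 against 3621 to 17079), with Rbfox3, Stmn2 and Snap25 past the test, and no neuronal marker was at 0. Pdgfra stood in both the fibroblast and the oligodendrocyte precursor list, and Tubb3 in both the neuroblast and the neuronal list, so these lists are not separate. The part of these cell types in the differences of Vim and Cd24a was not tested.

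**Figure D4:**
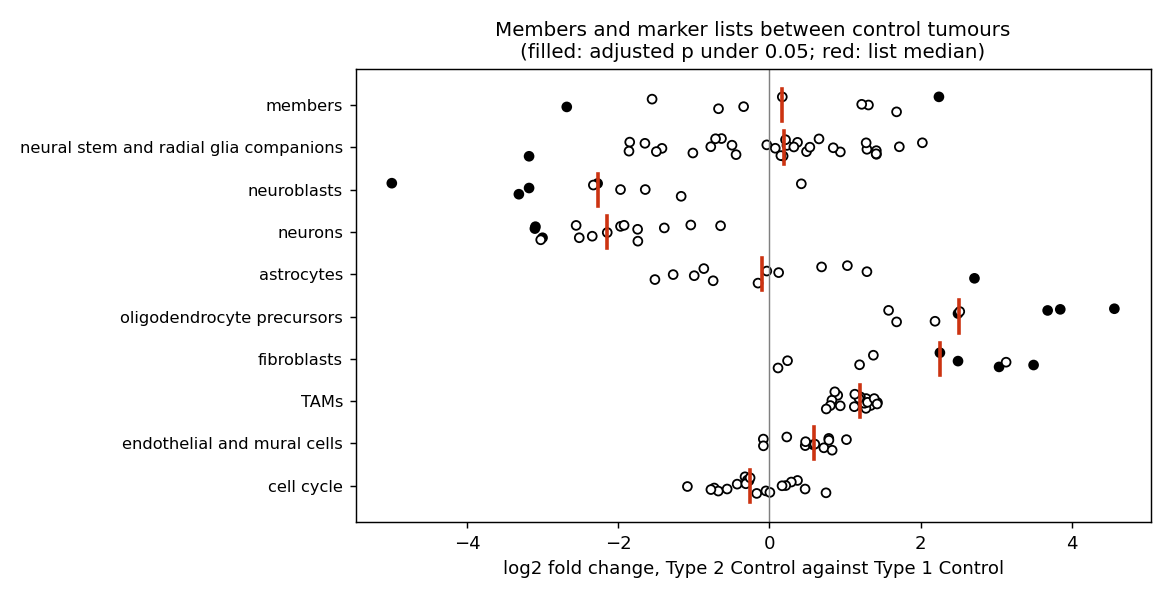
Log2 fold change between the control tumours (Type 2 against Type 1) of the 9 members and of the genes of 9 marker lists; each point is a gene, filled where the adjusted p is under 0.05, and red bars are list medians. The companion genes spread to both sides of 0, the neuroblast median lies at -2.27 and the fibroblast median at 2.25.

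The depleted tumours of both kinds were compared as well, in libraries other than those of the control comparison. None of the 9 genes passed by limma-trend (0 by limma-voom as well), where 0.185% of all genes did (0.0567% higher and 0.128% lower), and 1 of the 9, Cd24a, had an unadjusted p under 0.05. Cd24a had 3472, 4174 and 1414 normalized counts in Type 1 TAM depleted and 688, 82.5, 620 and 126 in Type 2 TAM depleted. All 4 Type 2 libraries lay below all 3 of Type 1, as 5.77% of genes did in this direction and 9.07% in either. This gave a log2 difference of -3.40 (SE 0.78; adjusted p = 0.104, limma-trend), or 10.5-fold lower. It was -3.51 among the low-background libraries alone (3 against 2, adjusted p = 0.362), and it passed without Type 1 TAM depleted 3 (-3.87, adjusted p = 0.049).

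Fabp7 was the other gene whose depleted groups did not overlap, with 1421, 2141 and 1435 normalized counts in Type 1 and 1393, 150, 1027 and 388 in Type 2. The separation was narrow, at 1421 against 1393, and the log2 difference was -1.60 (SE 0.79; adjusted p = 0.435, limma-trend). Vim, called between the controls, had a log2 difference of 0.49 (95% interval -0.48 to 1.46) between the depleted tumours, where the 2 groups overlapped. Beside these genes, all 20 cell cycle genes were lower in Type 2 TAM depleted than in Type 1 TAM depleted (median -1.70 against 0.11 over all genes), with 0 past the test by limma-trend or limma-voom and 15 at an unadjusted p under 0.05. Of 9 fibroblast markers 8 were higher (median 1.90), with Lum and Col3a1 past the test, and all 8 oligodendrocyte precursor markers (median 1.99; 4 at an unadjusted p under 0.05) and 12 of 15 neuronal markers (median 1.72; 2 at an unadjusted p under 0.05) were higher with 0 past it by limma-trend or limma-voom. The summed levels in Type 1 and Type 2 TAM depleted were 1720 to 6085 and 2585 to 8681 normalized counts for fibroblasts, 1455 to 3606 and 5872 to 19466 for oligodendrocyte precursors, 21033 to 58334 and 26030 to 128920 for neurons, and 15377 to 35601 and 3006 to 22438 for the cell cycle. No gene of these lists was at 0 in a library, and their part in the values of Cd24a and Fabp7 was not tested. The neuroblast marker Igfbpl1 was called lower there too (-4.54, adjusted p = 0.0192), and Mycn likewise (-7.60, adjusted p = 1.9e-05).

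Depletion of TAMs in Type 1 tumours gave no call among the 9 genes by limma-trend or limma-voom, against 0.0% of all genes, and 1 of the 9, Hmga2, had an unadjusted p under 0.05, as did 30.3% of all genes. Nes had 920, 1035 and 1367 normalized counts in the depleted tumours, each above every control. On the log2 scale the difference was 1.02 (SE 0.69; adjusted p = 0.308, limma-trend). Hmga2 had 12.9, 26.0 and 48.7, each below every control, with a log2 difference of -1.50 (SE 0.60, adjusted p = 0.121). Groups without overlap were common in this comparison, 39.1% of all genes, 10.5% higher and 28.6% lower, and the background of the libraries was split in the same way. The reads per kilobase of Hmga2 over the receptor density were 2.12, 3.81 and 22.9 in the depleted tumours against 1.04 to 1.77 in the controls, so Hmga2 was lower in normalized counts and higher over the background.

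Of the 9 genes 7 were higher on average after depletion in Type 1, but scaling over high genes lowered all 9 values: the median of all genes moved from -0.06 to -0.65, Nes from 1.02 to 0.41 and Msi1 from 0.39 to -0.22. Apart from Nes and Hmga2 the groups overlapped. Vim had 2268, 5132 and 3644 normalized counts after depletion, with 2 of 3 above every control (log2 difference 0.83, 95% interval -0.10 to 1.76). Cd24a likewise had 2 of 3 above every control (0.88, -0.69 to 2.45). Sox2 had 204, 252 and 757, inside the control range but for the last (0.69, -0.94 to 2.31), and Sox9 had 282, 545 and 824 (0.72, -1.02 to 2.46). Fabp7 (1.01), Msi1 (0.39) and Prom1 (-0.03) had adjusted p-values of 0.348, 0.633 and 0.948. In the deposited table of the Type 1 libraries alone 3 genes passed, Nes at 1.35, Vim at 1.16 and Hmga2 at -1.17 (adjusted p = 0.0202, 0.0317 and 0.0386), where 16381 of all 29708 genes tested did so.

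Of the 32 companion genes in Type 1, 26 were higher and 6 lower after depletion (median 0.50 against -0.06 over all genes), and 10 higher and 22 lower with scaling over high genes. None passed by limma-trend or limma-voom, and 2 had an unadjusted p under 0.05, Gli3 at -1.70 and Fut4 at -1.14. All 20 cell cycle genes were higher (median 0.71), or 15 of 20 with scaling over high genes, with 0 past the test by limma-trend or limma-voom and 0 at an unadjusted p under 0.05, among them Mki67, a marker of dividing cells, at 1.09. Of the 18 TAM markers 16 were lower, with 0 past the limma-trend or limma-voom test and 2 at an unadjusted p under 0.05, Adgre1 at -1.67 and Ccr2 at -1.56. Csf1r, the receptor on which macrophages depend, had 195 to 422 normalized counts in controls and 146 to 247 after depletion. The summed level of the 18 was 2307 to 4186 in controls and 1971 to 3926 after depletion, so the groups overlapped in it.

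In Type 2 tumours depletion again gave no call among the 9 genes by limma-trend (0 by limma-voom), where 3.61% of all genes passed, 2.37% higher and 1.24% lower. Hmga2, Msi1 and Vim had an unadjusted p under 0.05, as did 18.0% of all genes. No member separated the groups without overlap, as 7.25% of genes did (3.86% higher and 3.39% lower). The sizes differed widely among the members, from a log2 difference of -1.57 to 1.63.

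Hmga2 had 60.3, 23.3, 39.9 and 192 normalized counts in Type 2 TAM depleted, 3 of 4 below every control. The log2 difference was -1.57 (SE 0.58, adjusted p = 0.151, limma-trend). The value in Type 1 was -1.50, but there the controls lay at 1.04 to 1.77 times the background density and background was split by treatment. Within Type 2 the log2 difference was -0.86 among the high-background and -2.29 among the low-background libraries. In the high set Hmga2 was at 0.687 and 4.64 times the background density in Type 2 Control 1 and 3. It was at 1.03 and 2.04 times in Type 2 TAM depleted 3 and 4. The value of -0.86 thus rested on levels near the background. In every low-background Type 2 library Hmga2 was over 5 times the density. Hmga2 passed without Type 2 TAM depleted 4 (-2.15, adjusted p = 0.0342). Vim had 7287, 3597, 6270 and 3498, with 2 of 4 below every control and a log2 difference of -0.92 (SE 0.43, adjusted p = 0.265). It was -0.71 in the high and -1.14 in the low set.

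Sox9, which specifies glia and stem cells, had 2655, 628, 1765 and 433 normalized counts in Type 2 TAM depleted and 161, 1929, 157 and 283 in Type 2 Control. All 4 depleted libraries lay above 3 of the 4 controls, and Type 2 Control 2 lay above 3 of the 4 depleted libraries. This gave a log2 difference of 1.63 (SE 0.80; adjusted p = 0.298, limma-trend), 2.45 in the high and 0.80 in the low set. Msi1 had 1286, 572, 958 and 341, again all above 3 of the 4 controls, with Type 2 Control 2 above 2 of the 4 depleted libraries (1.25, SE 0.55, adjusted p = 0.239), and it passed without Type 2 Control 2 (1.81, adjusted p = 0.0462). Type 2 Control 2 was thus the control with high Sox9 and Msi1.

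For Nes, Sox2, Fabp7 and Cd24a the log2 differences in Type 2 were between -0.25 and 0.16, with opposite signs in the 2 background sets. Nes gave 0.58 in the high and -0.95 in the low set, and Sox2 gave 0.54 and -0.68. Fabp7 gave 0.98 and -1.47, and Cd24a gave 0.88 and -0.55. Their 95% intervals were wide, from -1.60 to 1.24 for Nes and from -1.64 to 1.50 for Sox2, so a 2-fold change in either direction lay within them. Prom1 differed by 0.26 (95% interval -0.46 to 0.98). With scaling over high genes Prom1 was at -0.04 and Cd24a at -0.13, the opposite sign to the values here.

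Cell type markers moved in the Type 2 comparison. All 15 neuronal markers were higher after depletion (median 3.55 against -0.21 over all genes; summed level 26030 to 128920 against 3621 to 17079 normalized counts in controls), and 8 passed by limma-trend, led by Rbfox3 at 3.30 and Snap25 at 4.58. Of 12 astrocyte markers 11 were higher (median 1.26; summed 19395 to 82792 against 4761 to 25780), with Aqp4 past the test at 2.04. All 18 TAM markers were lower (median -1.39; summed 2121 to 4847 against 4642 to 11506), with Adgre1, Ptprc, Fcer1g and Cd14 past the test, and all 9 fibroblast markers were lower (median -1.24), with Postn past it. Of 8 oligodendrocyte precursor markers 5 were lower and 3 higher (median -0.33; summed 5872 to 19466 against 5562 to 33556), with 1 past the test as lower. Of the 20 cell cycle genes 19 were lower (median -0.76), with 0 past the test by limma-trend or limma-voom and 1 at an unadjusted p under 0.05. No gene of these lists was at 0 in a library, and their part in the values of Sox9, Msi1 and Vim was not tested. Of the 32 companions 21 were higher and 11 lower (median 0.29; 16 and 16 with scaling over high genes), 0 passed by limma-trend or limma-voom and 3 had an unadjusted p under 0.05, namely Lhx2 at 1.54, Sox1 at 1.82 and Hopx at 1.04. The neuronal filaments Ina at 3.10 and Nefh at 2.95 were called higher, in the opposite direction to the value of Vim.

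The difference between the responses to depletion, Type 2 minus Type 1, was tested directly. It includes the Type 1 response, where background and depletion cannot be told apart, so this limit holds for every difference given here. None of the 9 genes passed by limma-trend or limma-voom, where 0.0% of all genes did, and only Vim had an unadjusted p under 0.05, as 10.1% of all genes did. Vim was higher after depletion in Type 1 (0.83) and lower in Type 2 (-0.92), a difference of -1.75 (SE 0.61, adjusted p = 0.468). The difference was -0.08 for Hmga2 (95% interval -1.85 to 1.69), whose values were negative in both kinds, and 0.22 with scaling over high genes. For the other 7 genes it ran from -1.26 in Fabp7 to 0.91 in Sox9. All 20 cell cycle genes had a negative difference (median -1.48; 19 of 20 with quantile normalization), with 0 past the test by limma-trend or limma-voom and 5 at an unadjusted p under 0.05.

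Over the 4 groups, the order of the mean log2 levels differed by gene. Vim and Sox2 ran from Type 2 Control down through Type 2 TAM depleted and Type 1 TAM depleted to Type 1 Control, and so did Nes. Cd24a, Fabp7 and Msi1 were highest in Type 1 TAM depleted, Sox9 in Type 2 TAM depleted, Prom1 in Type 1 Control and Hmga2 in Type 2 Control. Of 27 steps between neighbouring groups only 8 were larger than the larger of the 2 SDs. The widest was the step of 2.51 in Cd24a between Type 1 Control and Type 2 TAM depleted (SD 1.56). In Sox2, Sox9 and Fabp7 no step exceeded the SD.

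Nes, Sox2 and Sox9 were highest in the same 3 libraries and lowest in the same 1. Type 2 Control 2, Type 2 TAM depleted 1 and Type 2 TAM depleted 3 held the 3 highest levels of all 16 libraries in each of these genes. They came from both treatments, and 2 of them were low-background and 1 high-background. They had 3191, 3481 and 2707 normalized counts of Nes, 1436, 1436 and 1415 of Sox2 and 1929, 2655 and 1765 of Sox9. At the other end, Type 1 Control 5 was the lowest of 16 in all 3 genes, with 191, 41.5 and 68.6, and the highest in Msi1, with 1712. It also had the highest Mycn of all libraries, 46869 normalized counts.

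The same genes varied together within groups. After the group means were removed, r between log2 levels across 16 libraries was 0.897 for Nes and Sox2, 0.896 for Nes and Fabp7, 0.887 for Sox2 and Sox9, 0.886 for Nes and Sox9 and 0.822 for Sox2 and Fabp7. These were the only 5 of 36 pairs above 0.8. The libraries share depth, background and cell makeup, so r is a description. For Nes and Sox2 it was 0.941 in the 9 high-background and 0.838 in the 7 low-background libraries without removing means, and 0.828 without Type 1 Control 5 and Type 2 TAM depleted 1, the 2 libraries farthest from the median. Without those 2 libraries the r within groups was 0.863 for Nes and Sox2, 0.833 for Nes and Fabp7, 0.829 for Nes and Sox9, 0.807 for Sox2 and Sox9 and 0.699 for Sox2 and Fabp7. With group means left in, r for Sox2 and Fabp7 was 0.451, and 0.226 without those 2. Vim varied less closely with Nes (0.510 within groups), and Prom1 and Hmga2 with none of the others above 0.164.

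**Figure D5:**
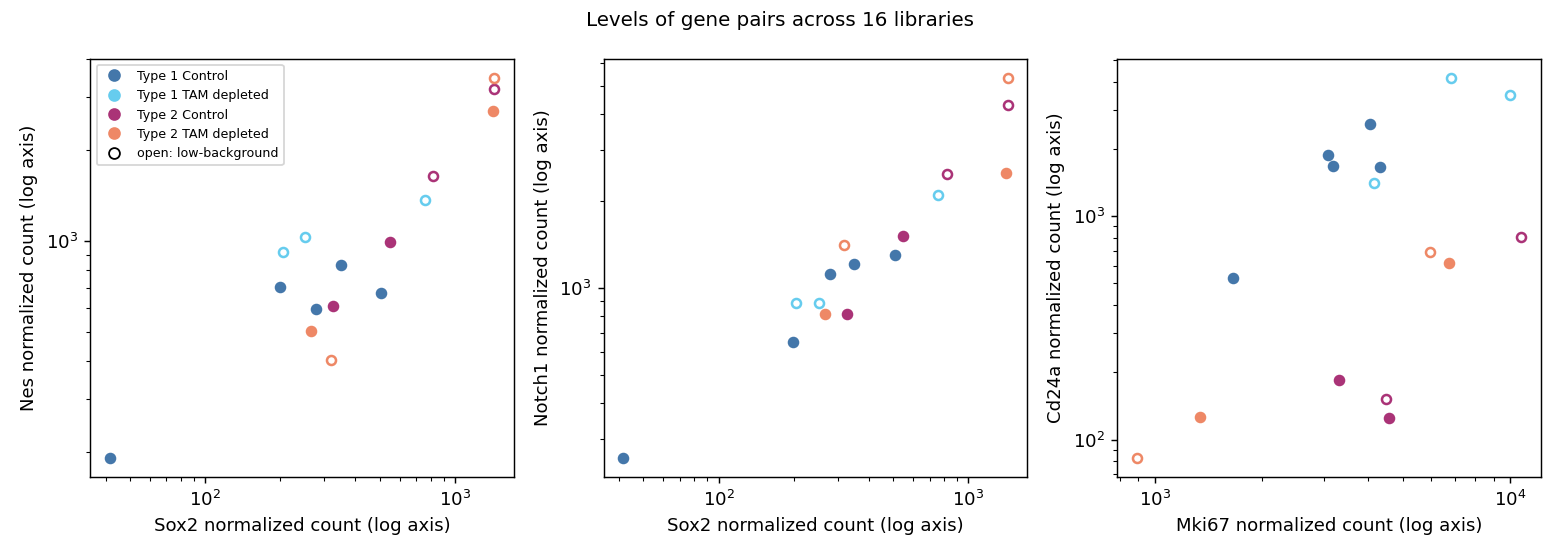
Normalized counts of Nes against Sox2, Notch1 against Sox2 and Cd24a against Mki67 in 16 libraries (log axes), coloured by group and open where low-background. Nes and Notch1 follow Sox2 across all groups, while the Cd24a points form 2 bands, Type 1 above Type 2 at a like Mki67 level.

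Cd24a followed Mki67 within the groups (r = 0.926 across 16 libraries with group means removed, 0.552 without removing them). In Type 2 the 3 libraries with the most Mki67, Control 2 and TAM depleted 1 and 3 at 10765, 5978 and 6720 normalized counts, were those with the most Cd24a. At 4568 and 4302 of Mki67, Type 2 Control 1 and Type 1 Control 5 had 125 and 1667 of Cd24a. In these 2 libraries Cd24a differed at like levels of this cell cycle gene.

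Among 12818 named genes with a mean of 50 or more normalized counts, those most like each member across the 16 libraries were found by Pearson's r on log2 levels. Sox2 was most like Notch1, the receptor that maintains radial glia (r = 0.961, 0.979 in each background set), then S100a16 and Efs. Nes was most like Pdlim5 (0.898), Notch1 (0.897) and Pcdh15, and Sox9 was most like Sox8 (0.953), Sox21 and Gldc, the first 2 of them SOX factors of glia and progenitors. Fabp7 was most like Alg5 (0.887), Zkscan17 and Marcks, and Msi1 like Macroh2a2 (0.942), Rbm15b and Rsl24d1. Cd24a was most like Snhg17 (0.958), Stc2 and Pou3f4, a factor of the developing brain. Vim was most like Ccng2 (0.926), Sec24d and Magt1, Hmga2 like the metalloprotease Adamts12 (0.908), Card6 and Kcnk6, and Prom1 like Zfp114 (0.813), Shcbp1l and Filip1, the lowest top value of the 9. Without Type 2 Control 4 and Type 2 Control 2, the libraries farthest from the median of Prom1, its r with these genes was 0.627, 0.575 and 0.704. With group means also removed it was 0.326, 0.433 and 0.821. Differences between groups enter the r of the other members too. Across 16 libraries with group means removed, Vim had 0.715, 0.736 and 0.720 with its 3 genes. Hmga2 had 0.845, 0.821 and 0.700 with its 3. Sox2 with Notch1 had 0.945, and Sox9 with Sox8 had 0.957.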

How the data were processed

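TRIzol and the miRNeasy Micro kit yielded the tumour RNA, which was made into 16 SMART-Seq v4 Ultra Low Input libraries, per the labels' protocols. This library kit copies full-length cDNA and does not mark strand. STAR 2.7.8a, GRCm38 and DESeq2 are named in the submitters' processing notes, without the DESeq2 version. Neither counting tool nor annotation is named there. The authors deposited values on a log2 scale in 3 tables: all libraries (26466 genes), Type 1 alone (30589) and Type 2 alone (26130). The design had assumed linear normalized counts; the deposited log2 values turned out variance-stabilized, with 1 lowest value per table (3.74, 2.39 and 4.87). That transformation was undone from the lowest value of each table, giving normalized counts. Dividing by the smallest step of each library gave whole reads for 100% of values (tolerance 0.05 reads). All per-sample columns were used, and tests stayed within a table.

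Genes with 10 or more normalized counts in at least 3 libraries entered limma-trend, run in R 4.3.3 with limma 3.58.1 on log2(normalized count + 1). A single model held the 4 groups (16 libraries, 12 residual degrees of freedom); p-values were 2-sided and adjusted by Benjamini-Hochberg for the 26463 genes, with a threshold of 0.05. Fold changes on this scale understate those of low genes. Groups and replicate numbers came from the sample titles. The 9 genes were named in every comparison, with up to 4 genes of smallest p from each list described and the 3 genes most like each member; Csf1r, Snap25 and Gfap stand as cell markers, and Mki67, Mycn and the overlapping genes were named after their values were seen. The members, lists and comparisons were chosen with earlier results of these data known. Gene positions are from GENCODE vM21, where 25514 symbols (96.4%) had 1 match, and upstream sequences from RefSeq (GRCm38.p6), where 6 of the 9 genes matched. On simulated counts, 12%, 68%, 94% and 90% of genes changed 2-, 4-, 8- and 16-fold between the controls were recovered (26443 genes), and 6%, 56%, 84% and 96% for Type 2 depletion (26438 genes). Those counts lacked the background sets, so the shares do not carry over to these libraries. Alternatives were other pseudocounts, filters and scalings, the values as deposited, library quality weights, limma-voom on recovered reads, a replicate block, the background set as a term or alone, the table of each tumour kind, and each library left out. Libraries were numbered as in the titles, Python 3.11.15 was used for levels and figures, and 95% intervals of fold changes are from limma. Depth was 4.21 to 18.3 M reads.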

Additional observations from a re-analysis of the deposited data

Results flagged for a closer look

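In the groups of 4 or 5 libraries, 27 were checked for a library far from the others, by its gap to the nearest library divided by the range of the group on the log2 scale, and 3 stood apart. Chance alone marks about 1 in 20 groups. Type 1 Control 5 was low in 2 genes: Sox9, at 68.6 normalized counts with the next library at 398 (0.902 of the range, limit 0.71), and Nes, at 191 with the next at 599 (0.775). Type 1 Control 3 was low in Cd24a, at 527 with the next at 1667 (0.725).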

How the results depend on the processing

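Across 1071 values of the 9 genes under the alternatives, 983 kept their direction and side of the threshold, 9 were no longer past it, 17 newly passed, and 62 changed sign with neither value past it. Vim between the controls passed in all 23 alternatives (log2 fold change 1.96 to 2.52, adjusted p = 0.000581 to 0.0409) and Cd24a in 14 of 23 (-3.28 to -2.34, adjusted p = 0.000591 to 0.157). The number of members past the threshold, 2 between the controls and 0 in the other comparisons, moved as follows. Between the controls it was 3 with quantile normalization, with scaling over high genes, with the background set as a term and among the high-background libraries alone, Msi1 being added each time. With library quality weights it was 1 for Type 1 depletion, 6 between the controls and 1 between the depleted tumours. In the table of the tumour kind alone it was 3 for Type 1 depletion. Without Type 1 Control 5 and Type 2 Control 1 together, chosen after seeing the data, it was 1 between the controls. Leaving out single libraries gave 1 to 3 between the controls, 0 to 1 between the depleted tumours and 0 to 1 for Type 2 depletion, and 0 throughout for Type 1 depletion and for the difference. Over all genes the calls ranged from 0 to 16381 for Type 1 depletion, 0 to 2635 for Type 2 depletion, 347 to 6559 between the controls, 12 to 429 between the depleted tumours and 0 to 748 for the difference. Scaling by high genes moved the median of all genes in Type 1 from -0.06 to -0.65. The split of calls, higher against lower, went from 627 and 329 for Type 2 depletion to 674 and 618 with upper quartile scaling, 719 and 516 with quantile normalization and 547 and 635 with scaling over high genes; between the controls it went from 603 and 216 to 626 and 446, 1094 and 724, and 605 and 496, and to 902 and 1441 with limma-voom. The calls as reported were 0, 956, 819, 49 and 0 in the same order as the ranges above. The cause of these shifts was not tested. With the replicate number as a block, 1 member passed between the controls (Vim, adjusted p = 0.0409; Cd24a, 0.157), and 347 genes were called there, with 209 higher and 88 lower for Type 2 depletion. Same-numbered libraries deviated together in 7 of 21 pairs (correlation over 0.1, range -0.67 to 0.50). In Type 2, Control and TAM depleted libraries 2 and 3, alike in background set, gave 0.50 and 0.30. Libraries 1 and 4, unlike in background set, gave -0.67 and -0.60. The check therefore cannot tell whether same-numbered libraries were paired. Depth limits the lowest values, which rest on 23 reads for Hmga2 and for Sox2, 33 for Msi1, 35 for Cd24a and 38 for Sox9.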
